A study of Homo sapiens with 16 samples.

Results

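The G2/M and mitosis genes described here are 40 genes fixed by name, all of which were found among the 60676 rows of the deposited count table. They encode the cyclins and kinases that drive entry into mitosis, the spindle checkpoint, the anaphase-promoting complex (APC/C) and its targets, centromere and spindle proteins, and the cytokinesis machinery. RNA of HCT116, a human colorectal carcinoma line, was sequenced from 8 groups, each represented by 2 libraries (16 in all). An shRNA was present in every cell, either the control (shCTL) or one directed at NELFE (shNELFE), a gene that encodes the RNA-binding subunit of the negative elongation factor that holds paused RNA polymerase II. Under each shRNA they were given DMSO, EPZ-5676 (an inhibitor of the histone methyltransferase DOT1L), HMBA (hexamethylene bisacetamide, which frees P-TEFb, a kinase that promotes elongation, from inhibition), or EPZ-5676 with HMBA. The groups without a compound received DMSO. The labels give neither doses nor times, and do not say if both libraries of a group were grown separately. The p-values here therefore concern these libraries alone, whose spread may be technical.

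Entry into mitosis is driven by CDK1 bound to cyclin A or cyclin B, which CDC25 phosphatases switch on and the WEE1 kinase holds back. The spindle checkpoint then restrains the APC/C until chromosomes are attached, after which the APC/C with CDC20 marks cyclin B and securin for destruction and cells divide. The genes for this machinery peak together late in the cell cycle. Their promoters are bound by the DREAM complex in resting cells and by B-MYB and FOXM1 in dividing cells, often through a cell cycle homology region (CHR) near the start site and CCAAT boxes upstream of it.

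The libraries numbered 1 in the labels did not resemble those numbered 2, apart from shNELFE with both compounds. Across genes, Pearson's r of log2 CPM (read counts scaled to the library total) was 0.936 to 0.991 among the 9 libraries made up of the 8 numbered 2 and shNELFE EPZ-5676 HMBA replicate 1, and 0.735 to 0.805 between them and the other 7. In the 9 libraries the epithelial genes EPCAM and CDH1 ranged from 296 to 592 and from 78.9 to 204 CPM, whereas in the 7 they ranged from 14.0 to 237 and from 0.0977 to 1602. Of the intestinal markers, CDX2 was 3.21 to 16.3 CPM in the 9, and CDX1 and VIL1 were at most 0.129 and 0.198. NELFE in the libraries numbered 2 was 68.1 to 81.2 CPM with shCTL and 14.6 to 21.7 with shNELFE. Among the 7, levels did not match those of the same labels in the 9. NELFE was 81.6 to 147 CPM in the 3 labelled shNELFE, though each lay below its shCTL counterpart with the same compounds (101 to 245). The 7 also differed among themselves, so these pairs were not all alike. CDH1 was 0.104 CPM in shCTL and 584 in shNELFE under DMSO, and 559 and 1456 under HMBA. The mesenchymal gene VIM was 1792 and 1.17 CPM in the DMSO pair. Under EPZ-5676, CDH1 was 1602 and 1581 CPM, and NELFE was 101 and 92.3. HEXIM1, a gene that HMBA is known to induce, was 46.7 to 73.9 in the 3 labelled HMBA, against 323 to 375 in the 5 others with HMBA (totals TMM-scaled over 16 libraries). In those of the 7 labelled without HMBA, HEXIM1 was 42.9 to 67.8 CPM. The libraries numbered 2 held 13428893 to 16354111 counts, and the others 17867037 to 21319666. The effects below come from the 8 libraries numbered 2, 1 per group, in an edgeR model in which shRNA, EPZ-5676 and HMBA act additively, so that each effect sets 4 libraries against 4 and an SD over 4 libraries includes the other factors. Within-group spread is not measured by such a fit, whose p-values rest on how far the 8 libraries depart from additivity. Levels are CPM on library totals scaled by TMM (edgeR's trimmed mean of M-values) over the 9 libraries.

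Promoter sequences show what the genes share beyond their names. RefSeq promoters (GRCh38.p14, 250 bases before to 50 after each start) were found for 34 of the 40 genes, in 46 windows, and not for AURKA, BIRC5, FOXM1, TPX2, TTK and UBE2C. The CHR was searched as TTTGAA (reverse complement TTCAAA) or TTCGAA, and the CCAAT box as CCAAT (reverse complement ATTGG), on both strands, with overlapping matches kept. Of the 34 genes, 25 (73.5%) held a CHR match, against 19.5% of 27305 genes in the promoter table. A CCAAT match was present in 29 (85.3%), against 39.7%, and both were present in 22 (64.7%), against 7.85%. By single promoter windows, 28 of 46 held a CHR match (60.9%), against 16.4% of 35116 windows. The MYC-type E-box CACGTG was found for 6 genes (17.6%), against 8.77%.

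The 120 bases before the start are shown for the 4 genes lowered most and the 4 raised most by HMBA among those with a CHR match in that stretch, because genes that moved in opposite directions carry the same motif. They are written 5′ to 3′ on the gene's strand, with CHR and CCAAT matches in capitals. BUB1B, GTSE1, CENPA and PLK1 fell with HMBA, and CKS2, CDK1, ANLN and HMMR rose.
BUB1B (chr15:40160949-40161068, + strand): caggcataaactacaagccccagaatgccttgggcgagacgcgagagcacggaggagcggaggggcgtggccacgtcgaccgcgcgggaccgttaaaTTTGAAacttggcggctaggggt
GTSE1 (chr22:46296750-46296869, + strand): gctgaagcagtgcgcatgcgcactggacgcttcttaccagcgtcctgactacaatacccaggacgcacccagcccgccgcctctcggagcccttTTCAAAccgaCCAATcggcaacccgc
CENPA (chr2:26785936-26786055, + strand): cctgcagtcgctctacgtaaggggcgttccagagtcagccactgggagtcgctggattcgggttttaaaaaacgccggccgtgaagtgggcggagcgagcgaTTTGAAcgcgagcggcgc
PLK1 (chr16:23678769-23678888, + strand): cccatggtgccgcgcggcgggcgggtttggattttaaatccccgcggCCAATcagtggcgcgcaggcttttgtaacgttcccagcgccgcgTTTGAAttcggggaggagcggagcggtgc
CKS2 (chr9:89311075-89311194, + strand): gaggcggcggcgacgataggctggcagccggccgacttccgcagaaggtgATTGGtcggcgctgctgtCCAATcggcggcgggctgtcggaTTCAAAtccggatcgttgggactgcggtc
CDK1 (chr10:60778358-60778477, + strand): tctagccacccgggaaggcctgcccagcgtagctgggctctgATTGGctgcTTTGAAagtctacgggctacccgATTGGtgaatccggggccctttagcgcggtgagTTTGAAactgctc
ANLN (chr7:36389742-36389861, + strand): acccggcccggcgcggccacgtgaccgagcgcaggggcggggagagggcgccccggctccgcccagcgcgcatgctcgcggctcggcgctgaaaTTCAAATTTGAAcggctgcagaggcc
HMMR (chr5:163460512-163460631, + strand): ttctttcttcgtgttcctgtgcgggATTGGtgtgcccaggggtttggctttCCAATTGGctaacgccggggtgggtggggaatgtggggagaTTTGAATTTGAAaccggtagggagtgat
The CHR match began 23 bases before the start in BUB1B, 26 in GTSE1, 18 in CENPA, and 29 in both PLK1 and CKS2. CDK1, ANLN and HMMR each held a pair of CHR matches. Of all 37 CHR matches in the windows, 12 began 30 to 21 bases before the start. A match beginning within the 40 bases before the start, a range chosen after the positions were seen, was found for 16 of 34 genes (47.1%) and for 2.81% of all genes. Among genes with a promoter, a CHR match was present in 15 of the 18 that fell with HMBA, 6 of the 7 that rose, and 4 of the 9 that did not pass the test. A match is a run of letters and does not show that a factor binds there.

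**Figure D1:**
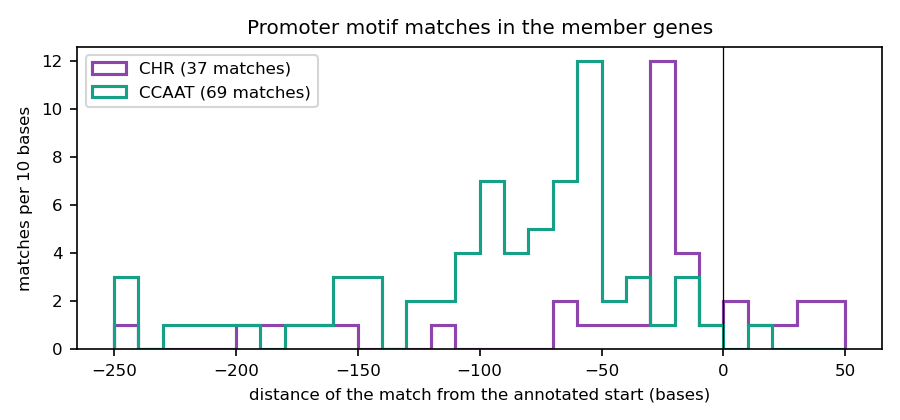
Number of motif matches per 10 bases (vertical axis) by distance from the annotated start (horizontal axis, bases) in the 46 promoter windows; CHR is TTTGAA or TTCGAA and CCAAT is CCAAT, both on either strand. The CHR matches peak at 12 in the bin from 30 to 21 bases before the start, and CCAAT matches peak at 12 further upstream, 60 to 51 bases before the start.

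HMBA changed most of the 40 genes, as it did most genes tested. Among the 40 the changes were mainly downward and modest. With edgeR's quasi-likelihood test and Benjamini-Hochberg adjustment over all 14808 genes tested (threshold 0.05), 23 of 40 fell, 7 rose and 10 did not pass. All 40 passed the filter on low counts. The background was large, since 35.7% of all genes tested fell and 34.9% rose, beside 57.5% and 17.5% of the 40. The median log2 fold change was -0.22 over the 40 and 0.01 over all genes. Of these, 4 falls and 1 rise reached 2-fold, while 13.4% of all genes tested were called at least 2-fold lower and 11.3% at least 2-fold higher. In 18 falling genes the 4 libraries with HMBA all lay below the 4 without it, and in 5 rising genes all lay above, while 29.3% and 26.3% of all genes were separated in these ways. The median over the 40 was negative in each of 4 pairs of libraries that differ in HMBA alone, from -0.15 in shCTL DMSO cells to -0.36 in shNELFE cells with EPZ-5676. Library totals without TMM scaling shifted the median of all genes by -0.23, moved the share of calls that were higher from 49.4% to 32.8%, and gave 32 falls and 5 rises among the 40. Mitochondrial genes took 8.87% to 10.1% of counts in libraries with HMBA, compared with 6.12% to 6.90% in the others. Summed markers of other cell types also moved with HMBA: 7 mesenchymal genes held 63.4 to 105 CPM against 34.9 to 66.9, 3 endothelial genes 9.17 to 13.4 against 1.72 to 2.89, and 5 blood genes 0.579 to 1.24 against 0.0648 to 0.187, with CD3E at 0. The endothelial difference lay in PECAM1, at 8.69 to 12.2 CPM against 0.747 to 1.48, while VWF and CDH5 overlapped between the arms. The 8 epithelial genes held 4590 to 5326 CPM against 4466 to 5979. Among them CDH1 was higher with HMBA (164 to 207 against 80.9 to 105 CPM), and KRT18, KRT19 and CDX2 were lower without overlap. The part of these in the result was not tested.

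**Figure D2:**
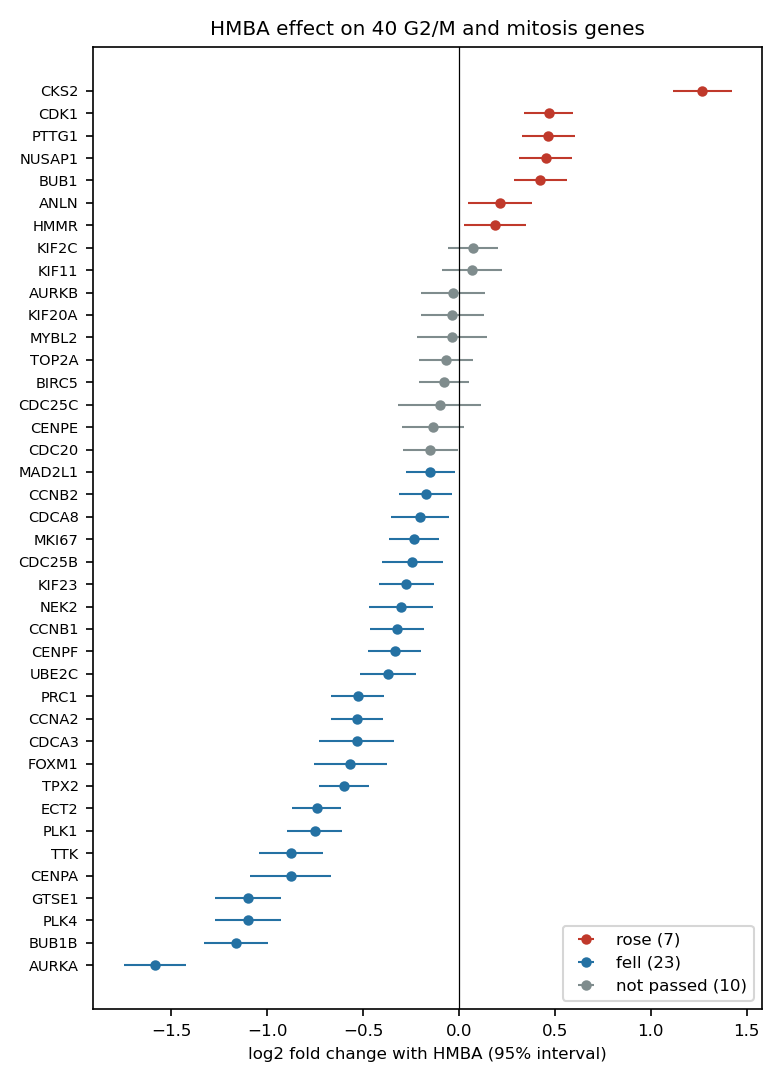
Log2 fold change with HMBA (horizontal axis) for each of the 40 genes (vertical axis), from the additive fit on 8 libraries, with 95% intervals; colours give the result of the edgeR test. AURKA lies lowest at -1.59 and CKS2 highest at 1.27, and 23 genes fell, 7 rose and 10 did not pass.

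AURKA, PLK4, PLK1 and NEK2 all fell. They are the 4 mitotic kinases outside the checkpoint and passenger groups apart from CDK1, which rose and is described with its cyclins. AURKA, the Aurora kinase of centrosome maturation and spindle assembly, was 66.5, 73.8, 74.5 and 80.6 CPM without HMBA, in the order shCTL DMSO, shCTL EPZ-5676, shNELFE DMSO and shNELFE EPZ-5676 that is kept below. With HMBA it was 25.5, 24.6, 22.2 and 25.1 CPM. Every library with HMBA was thus below every library without it, and AURKA fell from 73.8 ± 5.78 to 24.4 ± 1.49 CPM (SD, n = 4; log2 -1.59, SE 0.08, edgeR adjusted p = 3.84e-10). Its level was also 25.7 CPM in shNELFE EPZ-5676 HMBA replicate 1, which was not in the fit. PLK4, the kinase that starts centriole duplication, was 44.5, 40.6, 45.5 and 41.9 CPM without HMBA and 22.5, 20.4, 20.1 and 16.9 with it (log2 -1.10, SE 0.08, edgeR adjusted p = 2.25e-08). PLK1, which acts from mitotic entry to cytokinesis, was 140, 157, 142 and 173 CPM without HMBA and 88.8, 99.0, 85.5 and 86.6 with it (log2 -0.75, SE 0.07, edgeR adjusted p = 1.89e-07). Neither gene's groups overlapped. NEK2, a centrosome-splitting kinase, fell least of the 4, from 34.1 ± 5.11 to 27.2 ± 1.96 CPM (SD, n = 4 libraries in each arm), and its groups overlapped. BORA, the activator of Aurora A toward PLK1 and not among the 40, fell from 36.1 ± 5.82 to 15.6 ± 1.51 CPM (log2 -1.19).

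The cyclin and CDK1 group split. CKS2, the small subunit that binds CDK1 and its substrates, was 78.4, 68.7, 89.5 and 69.7 CPM without HMBA and 168, 176, 201 and 185 with it, with no overlap. This was a 2.41-fold rise (log2 1.27, SE 0.07, edgeR adjusted p = 1.70e-09). CDK1, the mitotic kinase itself, was 123, 119, 134 and 120 CPM without HMBA and 166, 172, 180 and 161 with it, again without overlap (log2 0.47, SE 0.06, edgeR adjusted p = 7.80e-06). Its cyclin partners moved the other way. CCNA2 (cyclin A2) fell from 107 ± 8.97 to 73.3 ± 7.40 CPM (SD, n = 4; log2 -0.53). CCNB1 (cyclin B1) was 208, 225, 244 and 230 CPM without HMBA and 167, 184, 198 and 171 with it, without overlap (log2 -0.32, SE 0.07, edgeR adjusted p = 0.000528). CCNB2 (log2 -0.17) and the CDK-activating phosphatase gene CDC25B (-0.24) also fell, and CDC25C, at 10.3 ± 0.677 against 9.55 ± 0.425 CPM with HMBA, did not pass (edgeR adjusted p = 0.390). The falls of CCNB1, CCNB2 and CDC25B were called on the 8 libraries and not on the 9, where CCNB1 stood at 242 CPM in shNELFE EPZ-5676 HMBA replicate 1.

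The spindle checkpoint genes, which delay anaphase, also moved apart. BUB1B (the checkpoint protein BUBR1) was 80.1, 83.9, 102 and 104 CPM without HMBA and 42.4, 38.3, 44.2 and 38.3 with it, a 2.24-fold fall without overlap (log2 -1.16, SE 0.08, edgeR adjusted p = 1.08e-08). TTK, the kinase that starts checkpoint signalling, was 39.6, 44.0, 49.1 and 49.2 CPM without HMBA and 22.0, 26.0, 23.3 and 27.0 with it (log2 -0.88, SE 0.08, edgeR adjusted p = 1.77e-07). BUB1, the kinetochore kinase, went up instead. It was 96.9, 88.5, 108 and 102 CPM without HMBA and 129, 135, 136 and 126 with it, without overlap (log2 0.42, SE 0.06, edgeR adjusted p = 4.24e-05). MAD2L1, the checkpoint effector MAD2, differed by -0.15 (edgeR adjusted p = 0.0347) with overlapping groups, and was not called when the ninth library was added.

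Of the APC/C activators and targets, CDCA3 fell from 23.9 ± 3.63 to 16.3 ± 1.41 CPM (SD, n = 4; log2 -0.53). UBE2C, the ubiquitin-conjugating enzyme of the APC/C, fell from 98.3 ± 6.40 to 75.6 ± 10.9 CPM (log2 -0.37), although shNELFE EPZ-5676 HMBA replicate 1 held 106 CPM. PTTG1 (securin, which restrains separase) was 68.9, 80.8, 79.6 and 79.1 CPM without HMBA and 104, 102, 111 and 106 with it, without overlap (log2 0.47, SE 0.07, edgeR adjusted p = 1.96e-05). Reads of PTTG1 may be shared with its near-identical copies, so that value is uncertain. CDC20, the mitotic activator of the APC/C, was 227 ± 18.5 CPM without HMBA and 202 ± 10.2 with it and did not pass (edgeR adjusted p = 0.0588).

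Among centromere and chromosome genes, CENPA, the centromeric histone H3 variant, was 17.8, 23.1, 19.6 and 24.3 CPM without HMBA and between 10.8 and 12.6 with it, without overlap (log2 -0.88, SE 0.10, edgeR adjusted p = 2.10e-06). CENPF (log2 -0.34) fell as well, and the kinetochore motor gene CENPE did not pass (-0.14). MKI67, the proliferation antigen Ki-67 that coats mitotic chromosomes, was 607, 582, 648 and 682 CPM without HMBA and 543, 547, 498 and 531 with it, a small fall without overlap (log2 -0.24, SE 0.06, edgeR adjusted p = 0.00336). TOP2A, which untangles sister chromatids, was 146, 139, 172 and 153 CPM without HMBA and 140, 144, 140 and 151 with it. Its groups overlapped and it did not pass (log2 -0.07, SE 0.07, edgeR adjusted p = 0.364). In the chromosomal passenger complex, CDCA8 (borealin) fell slightly (log2 -0.20), and AURKB (-0.03) and BIRC5 (survivin, -0.08) did not pass.

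The transcription factors that drive these genes differed from each other. FOXM1 was 61.7, 72.5, 77.3 and 90.5 CPM without HMBA and 45.6, 44.9, 62.6 and 48.9 with it (log2 -0.57, SE 0.09, edgeR adjusted p = 5.00e-05). It was lower in 4 of 4 pairs, though the shNELFE HMBA library lay just above the shCTL DMSO library. MYBL2 (B-MYB) was 115, 112, 104 and 119 CPM without HMBA and 117, 98.0, 130 and 94.8 with it, with overlapping groups, and did not pass (log2 -0.04, SE 0.09, edgeR adjusted p = 0.720).

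Spindle and cytokinesis genes held both falls and rises. GTSE1, a microtubule-binding protein of G2, was 44.0, 46.7, 43.7 and 45.8 CPM without HMBA and 19.3, 19.7, 23.7 and 20.8 with it, without overlap (log2 -1.10, SE 0.08, edgeR adjusted p = 2.74e-08). ECT2, the exchange factor that activates RhoA at the division plane, was 169, 146, 149 and 140 CPM without HMBA and 95.5, 94.3, 86.5 and 82.3 with it (log2 -0.74, SE 0.06, edgeR adjusted p = 6.35e-08). TPX2, the Aurora A activator on spindles, fell from 208 ± 17.2 to 136 ± 7.84 CPM (SD, n = 4), and PRC1, the midzone bundling protein, from 162 ± 14.9 to 112 ± 11.1, while the motor gene KIF23 fell less (log2 -0.27). NUSAP1, a microtubule stabiliser, was 91.4, 92.4, 106 and 104 CPM without HMBA and 135, 132, 141 and 125 with it, without overlap (log2 0.45, SE 0.06, edgeR adjusted p = 2.18e-05). HMMR was 71.1, 62.7, 84.9 and 66.8 CPM without HMBA and 83.5, 82.8, 82.4 and 72.6 with it. The scaffold gene ANLN was 175, 163, 187 and 180 CPM without HMBA and 217, 230, 187 and 181 with it. Both were called as rises (log2 0.19 and 0.22; higher in 3 of 4 pairs, with overlapping groups), were not called on the 9 libraries, and turned to -0.04 and -0.01 on unscaled totals. The motor genes KIF11 (0.07), KIF2C (0.07) and KIF20A (-0.04) did not pass.

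**Figure D3:**
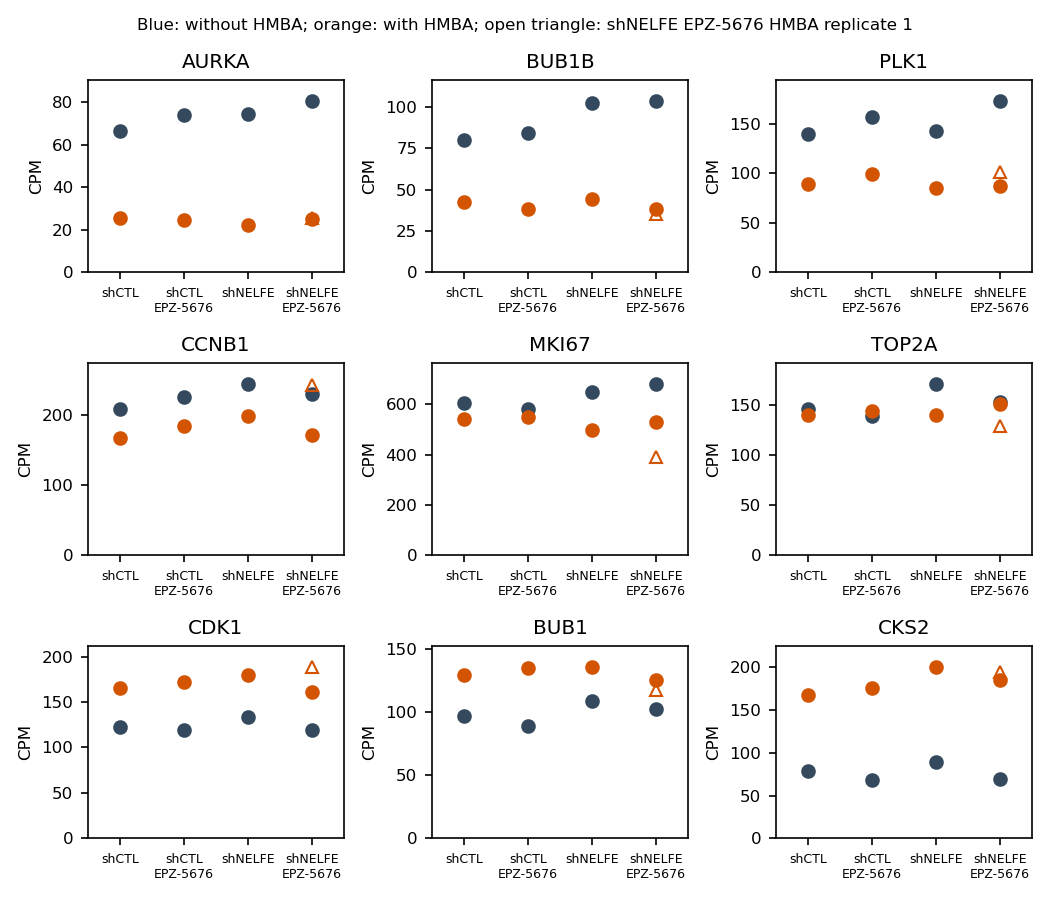
CPM (vertical axes, from 0) of 9 genes in each shRNA and EPZ-5676 combination (horizontal axes), without HMBA in blue and with HMBA in orange; each point is 1 library, and the open triangle is shNELFE EPZ-5676 HMBA replicate 1. AURKA with HMBA stays between 22.2 and 25.7 CPM in 5 libraries, CKS2 rises to 168 or more in all 5, and TOP2A overlaps.

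shNELFE with both compounds is the only group with 2 similar libraries, which gives a measure of library spread for these genes. The SD of a single library from this pair was 0.207 on the log2 scale, pooled over the 40 genes. The absolute log2 difference between its libraries had a median of 0.21 over the 40 genes and was at most 0.53 (CDC25C). The falls of AURKA, PLK4, BUB1B, GTSE1, CENPA, TTK, PLK1, ECT2, TPX2 and FOXM1 and the rise of CKS2 exceeded that largest difference. CDCA3, CCNA2 and PRC1 were level with it at -0.53, and the other HMBA differences were smaller. An effect of 4 against 4 libraries is an unlike measure to a difference between 2 single libraries, so this ranking is only a rough guide. Replicate 1 of that group lay below all 4 libraries without HMBA for 18 of the 23 genes that fell. It lay inside their range for 3 of them and above it for 2 (CCNB2 and UBE2C). Of the 7 genes that rose, it lay above all 4 for 5, inside for HMMR and below for ANLN. The same counts were not made over all genes, so they do not set the 40 apart from other genes.

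**Figure D4:**
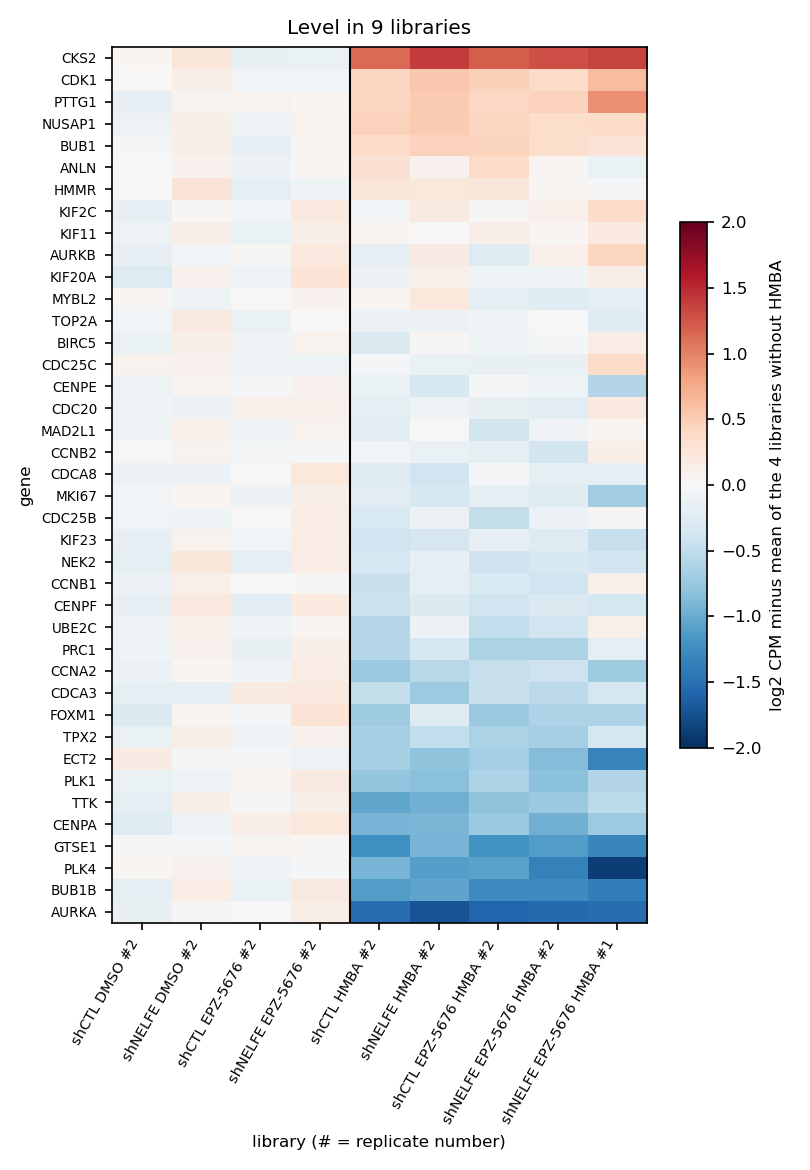
Log2 CPM of each of the 40 genes (rows, ordered by HMBA fold change) in 9 libraries (columns), relative to the mean of the 4 libraries without HMBA; red is higher and blue lower. The 5 columns with HMBA share the strong falls at the bottom, from AURKA to ECT2, and the rise of CKS2 at the top.

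The levels themselves spanned a wide range. Per kilobase of exon (GENCODE 29 gene models on hg38), the 40 genes ran from 125 ± 15.8 CPM per kb for CKS2 (ENSG00000123975, chromosome 9, 89311198 to 89316703) to 3.10 ± 0.203 for CDC25C (SD, n = 4 libraries without HMBA). CDC20 followed CKS2 at 111 ± 9.06 CPM per kb, and their ranges of 103 to 119 and 112 to 146 overlapped. AURKA (ENSG00000087586, chromosome 20, 56369389 to 56392337) stood at 25.2 ± 1.97 and BUB1B (ENSG00000156970, chromosome 15, 40161023 to 40221136) at 20.6 ± 2.72 CPM per kb.

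Other genes of the same machinery were described by 6 lists. In those on mitotic entry, kinetochore, centromere, APC/C, condensin and cohesin, and spindle and cytokinesis, 60 of 114 tested genes fell with HMBA and 14 rose, and the median log2 difference was -0.21, beside the 35.7% of all genes that fell and 34.9% that rose. The lists on centromere, APC/C and mitotic entry had shares of falls nearer to that background than the others. Among the entry regulators, 7 of 15 fell and 3 rose. The phosphatase gene CDC25A fell from 69.9 ± 3.66 to 17.4 ± 2.01 CPM (SD, n = 4), and WEE1, which inhibits CDK1, from 48.0 ± 4.21 to 17.3 ± 1.86 (log2 -1.46). Of 20 kinetochore and checkpoint genes 12 fell and 1 rose, the latter being NUF2 (0.37), whose partner in the NDC80 complex, NDC80, fell (-1.08). BUB3, the partner of BUB1 and BUBR1, fell from 219 ± 4.68 to 115 ± 5.78 CPM. Of 17 centromere genes 6 fell and 2 rose, led by CENPO (-1.30). Of 17 APC/C genes 7 fell and 4 rose, and UBE2S, the chain-elongating enzyme of the APC/C, rose from 253 ± 23.6 to 532 ± 111 CPM (log2 1.07). Of 21 condensin and cohesin genes 12 fell and 3 rose, led by the cohesin subunit SMC3 (log2 -1.33). In the spindle and cytokinesis list 16 of 24 fell and 1 rose (PBK), and ARHGAP11A fell from 164 ± 7.39 to 54.9 ± 4.23 CPM (log2 -1.57).

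Genes for regulators of the cell cycle were counted in 3 further lists, against the same background. Of 11 DREAM and MuvB genes 7 fell, 0 rose and 4 did not pass with edgeR, including the repressor E2F4 (log2 -0.64) and the pocket protein gene RBL1 (-1.17), at 13.9 ± 1.44 against 31.6 ± 3.81 CPM (SD, n = 4). Of 7 CDK inhibitor genes 5 rose, 1 fell and 1 did not pass, with CDKN1A (p21) at 858 ± 355 against 126 ± 35.1 CPM. For comparison, 20 of 32 G1/S and replication genes fell and 8 rose, with a median of -0.46.

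The shNELFE effect on the 40 genes was small and upward. With edgeR 7 of 40 rose (17.5%) and 0 fell, against 5.62% of all genes that rose and 7.48% that fell. At an unadjusted p under 0.05 edgeR gave 16 of the 40, of which 15 were higher. At that threshold the alternative test limma-voom gave 17 of the 40, beside 4246 of all 14808 genes. The median log2 fold change was 0.09 over the 40 and 0.01 over all genes, and 32 of 40 values were above 0. The 4 libraries of each arm did not overlap for MAD2L1, BIRC5 and KIF20A, while 1.78% of all genes were separated in this direction. In the other direction 0 of the 40 were separated, against 2.74% of all genes. CENPF, a kinetochore protein of G2, was 169, 161, 140 and 143 CPM in shCTL (DMSO, EPZ-5676, HMBA, both) and 216, 215, 155 and 155 in shNELFE (log2 0.27, SE 0.06, edgeR adjusted p = 0.0159). MAD2L1 was 112, 112, 102 and 92.6 CPM in shCTL and 128, 125, 118 and 113 in shNELFE (log2 0.22, SE 0.06, edgeR adjusted p = 0.0271). BIRC5 was 147, 155, 134 and 151 CPM in shCTL and 177, 171, 165 and 159 in shNELFE (log2 0.20, SE 0.06, edgeR adjusted p = 0.0417). In CENPF the shNELFE libraries with HMBA lay below the shCTL DMSO library, so its groups overlapped. NEK2 was 29.8, 29.6, 26.4 and 25.5 CPM in shCTL and 39.4, 37.5, 30.0 and 27.1 in shNELFE, and UBE2C was 93.6, 92.1, 66.3 and 70.0 in shCTL and 105, 102, 90.9 and 75.2 in shNELFE. With FOXM1 (log2 0.32, values above) and KIF20A (0.25), these were called at edgeR adjusted p from 0.0297 to 0.0488. All 7 genes were higher in 4 of 4 pairs. Their log2 differences, from 0.20 to 0.32, stand beside a median difference of 0.21 between the libraries of shNELFE with both compounds. The former set 4 libraries against 4 and the latter 1 against 1. Of the 7 calls, 0 held under all 14 alternatives. The number that held was 0 with the ninth library added, 0 without shCTL DMSO replicate 2, 0 without shNELFE EPZ-5676 replicate 2, and 1 to 3 when another library was left out. Calls also dropped among all genes, where 832 rose in the main fit. In the settings that kept 0, the rises among all genes were 114, 387 and 489 in that order. Without HMBA the median difference over the 40 was 0.17 under DMSO and 0.15 under EPZ-5676, and with HMBA it was 0.09, and -0.01 when EPZ-5676 was also given. In the 6 related mitotic lists 13 of 114 genes rose and 2 fell (PMF1, -0.35, and PIMREG, -0.33), and of 32 G1/S genes 13 rose and 0 fell. Of 11 DREAM and MuvB genes 1 rose and 0 fell. Of 7 CDK inhibitor genes 2 rose and 0 fell, by more than any of the 40. CDKN1A was 657 ± 585 CPM with shNELFE and 327 ± 264 with shCTL (SD, n = 4, log2 0.86), and CDKN1C differed by log2 2.15.

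EPZ-5676 changed none of the 40 genes past the threshold. With edgeR 0 of 40 passed, as with DESeq2 and limma-voom, and 6 had an unadjusted p under 0.05 with edgeR, 5 higher and 1 lower. At that unadjusted threshold limma-voom also gave 6 of the 40, beside 2982 of all 14808 genes. In all genes 1.36% rose and 2.44% fell past the adjusted threshold with edgeR. The arms were separated for 0 of the 40 in either direction, against 0.81% (higher) and 1.35% (lower) of all genes. The median was 0.00 over the 40 and over all genes. The smallest p belonged to CDCA8, at 76.3 ± 8.77 CPM with EPZ-5676 and 65.4 ± 5.99 without it (SD, n = 4; log2 0.23, SE 0.07, edgeR adjusted p = 0.0930), and to CDCA3 (0.27, SE 0.09, edgeR adjusted p = 0.125). The 95% intervals of the 40 log2 fold changes lay between -0.34 and 0.46, so effects within those bounds are not shown to be absent. In the 6 related mitotic lists 2 of 114 genes rose, CCNF (cyclin F, log2 0.35) and the centromere chaperone gene HJURP (0.31), and 3 fell, the cohesin gene STAG2 (-0.32), CDK7 (-0.33) and ZWILCH (-0.28). TFDP2 of the DREAM list also fell (-0.34).

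**Figure D5:**
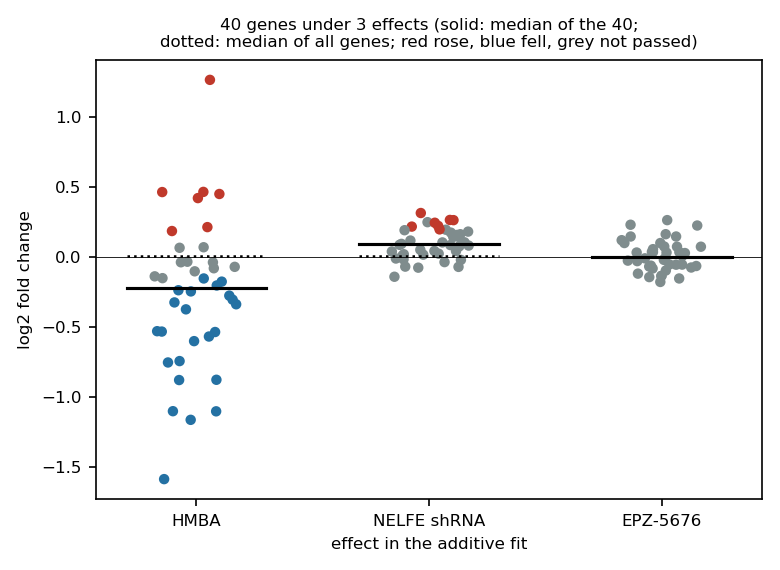
Log2 fold change (vertical axis) of the 40 genes for HMBA, shNELFE and EPZ-5676 (horizontal axis) in the additive fit, 1 point per gene, with the median of the 40 as a solid line and of all genes as a dotted line. The HMBA values spread from -1.59 to 1.27, the shNELFE values from -0.14 to 0.32 and the EPZ-5676 values from -0.18 to 0.27.

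Whether the HMBA effect on these genes depended on the other factors was tested with product terms, each added alone. With edgeR 0 of 40 genes passed for any of the 3 terms, and the same held with DESeq2 and limma-voom. At an unadjusted p under 0.05 edgeR gave 4 genes for HMBA with shNELFE, 5 for HMBA with EPZ-5676 and 1 for EPZ-5676 with shNELFE. The same counts from limma-voom stood beside 1118, 1667 and 306 of all 14808 genes. Calls past the adjusted threshold were few among all genes. They were 0.23% higher and 0.0135% lower for HMBA with shNELFE, 0.0135% and 0.0203% for HMBA with EPZ-5676, and 0% for the third term. For HMBA with shNELFE the median over the 40 was -0.14, and 32 of 40 values were below 0, beside a median of -0.01 over all genes. ANLN had the smallest p (log2 -0.39, SE 0.11, edgeR adjusted p = 0.327), with 175 CPM in shCTL DMSO and 217 in shCTL HMBA, and 187 CPM in both shNELFE libraries without EPZ-5676. KIF11 followed (-0.31, SE 0.12, edgeR adjusted p = 0.553). Outside the 40, 1 of the 7 CDK inhibitor genes was called higher for HMBA with shNELFE and 0 lower. For HMBA with EPZ-5676 the smallest p-values were those of MYBL2 (-0.42, SE 0.12, edgeR adjusted p = 0.252) and FOXM1 (-0.42, SE 0.13, edgeR adjusted p = 0.282). The 95% intervals of the product terms lay between -0.69 and 0.55 on the log2 scale over the 40 genes and 3 terms, so a p that missed the threshold does not show equal responses. For EPZ-5676 with shNELFE, CCNB1 (-0.27) and BIRC5 (-0.17) had the smallest p-values, with an edgeR adjusted p of 1.00.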

How the data were processed

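The deposited table holds raw read counts per Ensembl gene for 16 libraries, used as the authors deposited them. The submitters' processing notes name HTSeq 0.6.1p1, STAR 2.4.0b, edgeR and Cufflinks 2.1.1, without roles, and the build hg38. A stranded mRNA kit was used, per the labels' protocols. Which strand setting and annotation were counted is not given in the sources used here. Groups come from the titles. The 8 libraries numbered 2 were fitted with edgeR 4.0.16 in R 4.3.3 (TMM, filterByExpr, quasi-likelihood F-test, Benjamini-Hochberg at 0.05), with 4 residual degrees of freedom, or 3 with a product term. Alternatives were RLE scaling, unscaled totals, no filter, DESeq2 1.42.0, limma-voom (limma 3.58.1), 9 or 16 libraries, the replicate number as a block, the 8 libraries numbered 1, and leaving out each library. Symbols were matched by identifier and positions taken from GENCODE 29. The genes, the 9 related lists and the tests were chosen with earlier results of these data known. Values per library are given for CCNB1, CDK1, PLK1, MKI67, TOP2A, FOXM1, MYBL2, up to 8 of the largest falls and of the largest rises called for HMBA, and, for other effects, up to 6 called genes or the 2 smallest p-values. Related lists are given by counts and up to 3 genes of smallest p. KIF20A, NUF2, PBK, PMF1 and PIMREG were named after their values were seen. Of 16 libraries 0 pairs were identical. The code was tested on simulated counts. Correlations between libraries used log2 CPM with a prior count of 2. The floor of 3 counts corresponds to 0.141 to 0.223 CPM, which covers counting error only.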

Additional observations from a re-analysis of the deposited data

How the results depend on the processing

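Of the 30 genes called for HMBA, 23 kept their call and direction under all 14 alternatives that used the libraries numbered 2 or the 9. CCNB1, CCNB2, CDC25B, MAD2L1, CDCA8, HMMR and ANLN did not. Leaving out each library gave 5 to 7 rises, 20 to 23 falls and a median of -0.25 to -0.18 for HMBA. Among all genes it gave 4764 to 5078 rises and 4920 to 5142 falls for HMBA. It gave 0 to 4 rises and a median of 0.07 to 0.13 for shNELFE, where 0 of the 7 calls held throughout. Rises for shNELFE among all genes were then 387 to 825, against 832 in the main fit. Unscaled totals moved the HMBA median to -0.45 and reversed HMMR (-0.043) and ANLN (-0.015). The 9 libraries gave 0 rises for shNELFE with edgeR, with 10 of the 40 and 2899 of all 14912 genes at an unadjusted p under 0.05. For HMBA they gave 5 rises and 19 falls, beside 4626 and 4766 among all genes. For shNELFE they gave 114 rises among all genes.

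With all 16 libraries edgeR called 0 of 40 genes for any effect, and also 0 of all 15853 genes tested. DESeq2 and limma-voom were not run there. Without a replicate block 2 of the 40 for HMBA and 0 for shNELFE and EPZ-5676 had an unadjusted p under 0.05 with edgeR. Among all 15853 genes these numbers were 1641, 400 and 90. The medians over the 40 were -0.067 for HMBA, -0.021 for shNELFE and -0.12 for EPZ-5676, with MAD2L1 reversed for HMBA (0.037), and FOXM1 (-0.52), KIF20A (-0.017), BIRC5 (-0.020) and UBE2C (-0.077) for shNELFE. With the replicate number as a block 9, 0 and 0 of the 40 had an unadjusted p under 0.05, beside 2874, 443 and 158 of all genes. The medians over the 40 were then -0.055, 0.0044 and -0.12. Under the block, MAD2L1 (0.073), MKI67 (0.051), CENPF (0.76), KIF23 (0.15) and NEK2 (0.10) reversed for HMBA, and FOXM1 (-0.22), BIRC5 (-0.015) and UBE2C (-0.028) for shNELFE. The block thus left the calls at 0, among the 40 and among all genes. Nothing in the labels says that a number marks a shared day or culture. Libraries of the same number deviated from their group means with r of 0.07 to 0.96 over 28 pairs of groups, of which 24 were above 0.1, and 15 of 16 libraries were closest to a library of their own number.

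Of the 8 libraries numbered 1, 7 stand apart. Where these 7 were labelled shNELFE, NELFE lay below each shCTL counterpart but well above its level in shNELFE libraries numbered 2. Where they were labelled HMBA, HEXIM1 (46.7 to 73.9 CPM) overlapped its range in those without HMBA (42.9 to 67.8 CPM). The labels of the 7 are therefore in doubt, and effects by label in the libraries numbered 1, and in all 16, carry that doubt. In the 8 libraries numbered 1 edgeR called 0 of 40 genes for each effect, and also 0 of all 16637 genes tested. Of the 40, 0 had an unadjusted p under 0.05 for HMBA, shNELFE and EPZ-5676. Among all 16637 genes 3, 306 and 71 had such a p. The medians over the 40 were 0.11, -0.13 and -0.20. For HMBA, CCNA2 (0.28), CCNB1 (0.063), CCNB2 (0.10), PLK4 (0.14), BUB1B (0.10), MAD2L1 (0.33), TTK (0.62), MKI67 (0.34), CENPF (1.91), KIF23 (0.65), NEK2 (0.53) and ECT2 (0.24) reversed there, as did FOXM1 (-0.80), KIF20A (-0.17), BIRC5 (-0.20) and UBE2C (-0.24) for shNELFE. The cause was not tested. The product terms gave 0 called genes among the 40 under every alternative run with edgeR, DESeq2 and limma-voom. Among all 14808 genes, HMBA with shNELFE gave 54 higher and 4 lower with DESeq2, and 35 and 2 with limma-voom. HMBA with EPZ-5676 gave 15 and 8, and 3 and 2, and EPZ-5676 with shNELFE gave 1 and 0, and 0 and 0.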

Other observations

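On totals TMM-scaled over all 16 libraries, the 7 libraries that stand apart all lay above the other 9 for 8 of the 40 genes and below them for 9. Among all 14808 genes tested, 12% lay above and 17.5% below in the same way. AURKA, which ranged from 21.6 to 78.6 CPM in the 9, ranged from 107 to 204 in the 7. MYBL2 (240 to 548 against 93.6 to 126 CPM) and FOXM1 (148 to 375 against 43.8 to 88.2 CPM) were also higher, as were PLK1, PRC1, CDC25B, CDC25C and CDCA3. HMMR (2.96 to 9.13 against 61.3 to 85.2 CPM), CENPE (1.94 to 5.29 against 28.6 to 45.9) and CENPF (7.59 to 39.2 against 138 to 217) were lower, with TOP2A, CDK1, KIF23, NUSAP1, NEK2 and ANLN. CCNB1 overlapped, at 180 to 318 CPM in the 7 and 164 to 245 in the 9. These libraries carry 7 of the 8 group labels and are given as values only.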
